A study of Mus musculus with 4 samples.

Results

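Replication-dependent histone genes were examined in RNA sequencing of cultured mouse cells that received DMSO or daidzein. The genes were taken by symbol alone: H1f1 to H1f5 and every numbered H2ac, H2bc, H3c and H4c row of the deposited table. This gave 56 genes of 55401, namely 5 H1, 15 H2A, 14 H2B, 12 H3 and 10 H4 genes. No measured value entered the choice. Another 9 clustered histone rows carry older symbols that the rule does not take, so the 56 are not every replication-dependent histone gene of the mouse.

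There were 4 libraries, 2 of cells given the solvent DMSO and 2 of cells given daidzein, an isoflavone of soybeans. All groups share the C57BL/6 strain, the ovary as tissue of origin, the name female germline stem cells and a medium with serum, leukemia inhibitory factor, GDNF, basic FGF and EGF. The dose and duration behind the sequenced libraries, the method of RNA selection, the read length and the strand setting are not stated in the labels. No label says that replicates came from separate cultures, so the p-values rest on a spread between samples that may be technical. Library totals ran from 16230400 to 18537134 counts, so that a count of 0 allows up to 3 counts, or 0.162 to 0.185 CPM (a gene's counts for each 1000000 counts of its library). Germ cell markers were close to 0: Ddx4 had 2 reads in all and Dppa3 and Sohlh1 had 0. The blood cell genes Ptprc, Kit, Cpa3 and Adgre1 had at least 2006 reads per library, while Fcer1a and Tpsb2, on the same list, had 0. The labelled cell type is therefore not borne out by these markers.

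Histones H2A, H2B, H3 and H4 form the core of the nucleosome, around which DNA is wound, and H1 binds the linker DNA. Replication-dependent genes lie in clusters and are transcribed in S phase, when new DNA must be packaged. Their messages are unusual among animal mRNAs: they have no introns and end in a conserved stem-loop instead of a poly(A) tail. The stem-loop is bound by the protein of Slbp, and U7 snRNA guides the cleavage just after it. Variant histone genes such as H3f3a, H3f3b and H2az1 are transcribed throughout the cell cycle and make ordinary polyadenylated mRNA. A library made by selecting poly(A) tails captures the second kind and largely misses the first, as general background.

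The stem-loop was present in most gene models and marks what these transcripts have in common. The pattern searched on the sense strand of the GENCODE M21 transcripts has 16 bases: GG, 2 free bases, CTT, 1 free base, T, 1 free base, AG, 2 free bases and CC. It was found in 37 of 56 members (66.1%) and in 0.296% of 55394 other genes. The commonest form, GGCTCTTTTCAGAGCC, was carried by 21 members, and the H4 matches had forms found in no other type. For the members with the most reads of each type that hold the pattern (H2bc14 and H2bc6 tie), and for H4c4, the stem-loop is given in capitals with its flanking bases, 5′ to 3′, as DNA letters:
H1f2: tccaaaaGGCTCTTTTCAGAGCCaccactc
H2ac8: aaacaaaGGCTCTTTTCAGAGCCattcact
H2bc14: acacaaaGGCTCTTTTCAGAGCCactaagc
H2bc6: aaccaaaGGCTCTTTTCAGAGCCacccaac
H3c3: aaaaaaaGGCTCTTTTAAGAGCCacctaag
H4c9: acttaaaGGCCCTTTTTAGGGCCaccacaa
H4c4: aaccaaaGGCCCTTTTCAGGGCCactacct

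The position of the stem-loop in the model differed between members. In 18 members the longest annotated transcript ended within 100 bases of the stem-loop, a limit chosen for this comparison. The distance ran from 11 bases in H2ac4 to 74 in H3c3. In 19 members the transcript ran more than 100 bases past the stem-loop, as far as 4884 bases in H1f3. The remaining 19 models held no match, and H2bc21, at 2620 exonic bases, was the longest of them. A missing match says only that these letters are not in the annotated transcript. Nearly all models, 54 of 56, had a single exon, and 55 were annotated as protein-coding; H2ac14 is annotated as an unprocessed pseudogene.

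Replication-dependent histone transcripts were scarce in every library. The members summed to 401 and 412 reads in the DMSO libraries and to 403 and 478 in the daidzein libraries. As a share of each library this was 24.7 and 24.1 CPM with DMSO and 23.4 and 25.8 CPM with daidzein. The 95% exact Poisson intervals of all 4 libraries overlap from 23.5 to 25.8 and together span 21.2 to 28.2. These intervals cover counting error only. A total of 9 members had 0 reads in all libraries, 7 had 1 to 9 reads over the 4 libraries, 28 had 10 to 39 and 12 had 40 or more. The median member had 19.5 reads over all libraries, and 5 members (H1f2, H4c9, H2bc21, H4c4 and H2ac8) held 40.0% of the 1694 reads. On the FPKM scale, which divides by exonic length and library total, the median member stood at 0.436 and the highest, H4c9, at 2.73. Only 12 members reached a mean of 1 FPKM, a level reached by 10062 of the 19575 genes with a read.

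**Figure D1:**
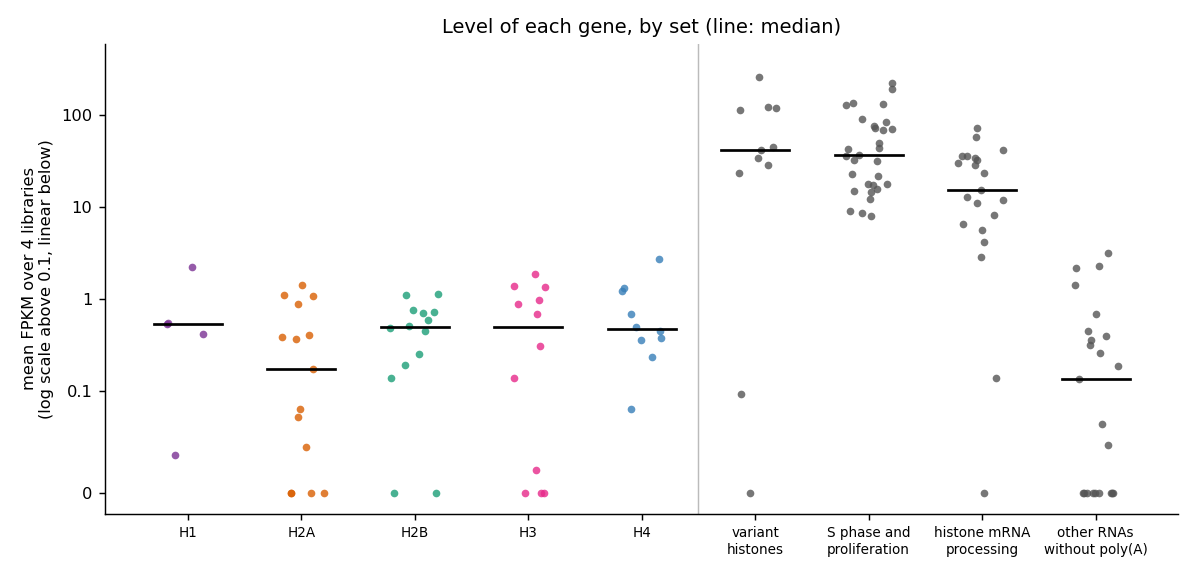
Mean FPKM over the 4 libraries for each gene (points) and the median of each set (line), on an axis that is logarithmic above 0.1 and linear below. Histone members of all 5 types lie at or below 2.73 FPKM, while the medians of the variant histone and S phase sets lie at 42.3 and 36.9.

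Variant histone genes from a list of 11 were far more abundant in the same libraries. H3f3b, which encodes the replacement histone H3.3, had 258 and 259 FPKM with DMSO and 263 and 261 with daidzein. H2az1, which encodes H2A.Z, had 119, 110, 114 and 112 FPKM in the same order. H2ax, whose protein is phosphorylated at DNA breaks, had 46.7, 40.0, 40.1 and 42.3 FPKM. H1f0, the linker histone known from resting and differentiating cells, had 33.2, 35.1, 35.6 and 32.9 FPKM. Each of these 4 genes lay above every member in every library. At the other end of the list H1f10 had 0 reads and Macroh2a2 had at most 9 per library. Summed over the 56 members, FPKM came to 3.90% and 3.92% of the variant sum with DMSO and to 4.06% and 4.60% with daidzein. In plain read counts the members made up 0.859% to 0.962% of the variant reads, a measure that favours longer models. For the 46 members with at least 100 unique bases, division by unique length instead of exonic length gave a mean share of 6.45%. Members with less unique sequence, some of them with reads, were left out. The variant sum stayed per exonic length.

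Genes of S phase and cell division were expressed at high levels beside this. Pcna, the sliding clamp of the replication fork, had 224 and 228 FPKM with DMSO and 225 and 224 with daidzein. Mcm3, a subunit of the replicative helicase, had 194, 200, 191 and 196 FPKM. Rrm2, the ribonucleotide reductase subunit that rises in S phase, had 134, 139, 134 and 140 FPKM. Mki67, a marker of cycling cells, had 20.7, 25.1, 21.3 and 25.9 FPKM. All 30 genes on the list had reads, from 8.08 FPKM for Ung to 225 for Pcna as means over the libraries. Every one therefore stood above every histone member, although division itself was not measured here. In bulk samples, fewer cells of a type and less RNA per cell cannot be told apart.

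The machinery that makes histone mRNA was also present. Slbp had 36.3 and 35.3 FPKM with DMSO and 37.0 and 37.1 with daidzein. Npat, the cyclin E-Cdk2 substrate that activates histone gene transcription, had 5.06, 5.92, 5.40 and 6.58 FPKM. Lsm11, a protein of the U7 particle, had 4.06, 3.97, 4.35 and 4.34 FPKM, and Lsm10, its partner, had 15.5, 15.0, 16.3 and 15.6. Cpsf3, the nuclease that cuts the message, averaged 30.2 FPKM. The least expressed protein gene of the list was Zfp473, at 0.140 FPKM, whose product binds the histone pre-mRNA and stabilises U7 binding. Of the chaperones that carry new histones, Nasp averaged 51.3 FPKM, Asf1b 56.9 and Chaf1a 16.4. The 20 chaperone genes all had reads.

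Other RNAs that carry no poly(A) tail were scarce too. Rn7sk, the 7SK RNA that holds the transcription factor P-TEFb, had 7 and 19 reads with DMSO and 9 and 18 with daidzein. Rpph1, the RNA of ribonuclease P, had 15, 18, 20 and 17 reads, which is 2.87 to 3.65 FPKM. Rmrp and Terc, the RNA of telomerase, had 0 reads in every library, as did Rnu7 itself. Over 23 such RNAs found in the table, 9 had 0 reads, and the set summed to 2.71 and 2.80 CPM with DMSO and to 2.91 and 2.81 with daidzein. The median of the set was 0.135 FPKM, against 0.436 for the histone members. Malat1, a nuclear RNA whose end is a stabilised triple helix in place of a tail, had 255, 292, 169 and 249 reads, or 1.41 to 2.44 FPKM. Most of these RNAs are shorter than typical mRNAs, and their share of unique sequence was not computed. For them a selection by tail, a loss of short RNA and uncounted reads with several matches cannot be told apart. The part of any of these in the histone counts was not tested.

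All 5 types contributed, with similar medians per gene except in H2A. Members with 0 reads numbered 4 of 15 in H2A, 3 of 12 in H3 and 2 of 14 in H2B. Median FPKM over the members was 0.540 for H1, 0.505 for H2B, 0.500 for H3, 0.476 for H4 and 0.172 for H2A. As summed CPM, H1 genes gave 6.22 and 5.20 with DMSO and 5.64 and 4.53 with daidzein. H2B genes gave 5.73, 6.89, 6.11 and 5.83 in the same order. H4 genes gave 5.11, 4.56, 5.53 and 6.31, so both daidzein libraries lay above both DMSO libraries. H3 genes gave 4.74, 4.56, 3.66 and 4.91. H2A genes gave 2.90, 2.86, 2.50 and 4.21, with daidzein replicate 2 apart from the other libraries. In summed FPKM the 15 H2A genes gave 5.89, 5.77, 5.06 and 7.55, above the 5 H1 genes at 4.30, 3.61, 4.11 and 3.13. Within each type the Poisson intervals of all 4 libraries overlapped, most narrowly in H2A, where the interval of daidzein replicate 1 ended at 3.37 and that of daidzein replicate 2 began at 3.33. These sums over members are given as a description and were not tested.

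**Figure D2:**
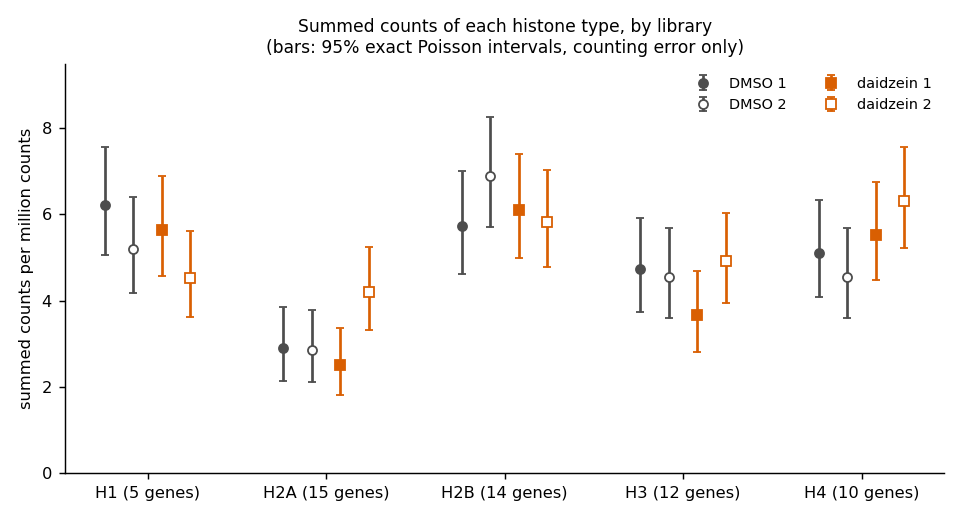
Summed CPM for each histone type, with 1 point per library (circles DMSO, squares daidzein; filled replicate 1, open replicate 2) and 95% exact Poisson intervals for counting error. H2A is the lowest type in each library, from 2.50 to 4.21, and the libraries of the 2 groups interleave in H1, H2A, H2B and H3.

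Among linker histones, 1 gene held most reads. H1f2 (ENSMUSG00000036181; GRCm38 chromosome 13, 23738808 to 23740367, plus strand, a single coding exon with its untranslated ends) had 70 and 58 reads with DMSO and 57 and 54 with daidzein. It held 239 of the 371 H1 reads and 1.87 to 2.76 FPKM. Its annotated transcript runs 840 bases past the stem-loop. H1f4 had 13, 16, 18 and 9 reads, and H1f1, H1f3 and H1f5 had at most 11 per library. The H1f3 model spans 7425 exonic bases, and its mean FPKM was 0.0375. Part of the H1f4 model, 25.7%, is shared on the same strand with H2bc6 and the locus Gm11398, so their reads may not be separable.

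Among H2A genes the reads were spread thinly. H2ac8 led with 13 and 17 reads with DMSO and 12 and 29 with daidzein, followed by H2ac4 with 7, 5, 13 and 11 and H2ac15 with 6, 14, 3 and 7. All 15 H2A models overlap an annotated gene on the opposite strand, so without a known strand setting some reads may be lost or misplaced. The median H2A member had 36.4% of its 100-base stretches to itself, the lowest of the 5 types.

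Among H2B genes, H2bc21 (ENSMUSG00000068854; GRCm38 chromosome 3, 96221119 to 96223738, plus strand, a single coding exon with its untranslated ends) had 27 and 39 reads with DMSO and 22 and 40 with daidzein. Both replicate 2 libraries were the higher ones, and the groups overlapped. H2bc21 had 128 of the 424 H2B reads, and its model of 2620 exonic bases held no stem-loop match. H2bc14 had 2, 12, 9 and 19 reads, and H2bc12 had 5, 15, 12 and 4. H2bc4 was the most even of the leading H2B genes, with 9, 8, 10 and 9 reads.

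Among H3 genes no member stood far above the others. H3c3 had 24 reads in DMSO replicate 1 and 11, 12 and 12 in the other libraries. H3c6 had 10 and 19 reads with DMSO and 15 and 13 with daidzein, and H3c11 had 10, 14, 13 and 17. H3c10 had 14, 9, 3 and 14 reads. Per length H3c11 was the highest H3 gene, with a mean of 1.89 FPKM.

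Among H4 genes, which all encode the same protein, H4c9 and H4c4 held 137 and 103 of 373 reads. H4c9 (ENSMUSG00000060639; GRCm38 chromosome 13, 22040636 to 22041362, minus strand, a single exon) had 34 and 29 reads with DMSO and 35 and 39 with daidzein. H4c4 (ENSMUSG00000061482; GRCm38 chromosome 13, 23581598 to 23582735, plus strand, a single exon) had 29, 21, 27 and 26 reads. The groups overlapped in CPM for both genes. H4c12 had 5, 5, 5 and 12 reads and H4c11 6, 3, 5 and 6.

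The members lie in 4 clusters, 3 on chromosome 13 and 1 on chromosome 3. The largest, on chromosome 13 from 23531050 to 23934851 (403.8 kb), has 30 members and 1043 reads. A second stretch from 21715763 to 21783370 has 11 members and 285 reads, and another from 22035164 to 22043676 has 5 members and 214 reads. The chromosome 3 cluster, from 96219865 to 96270132, has 10 members and 152 reads, of which H2bc21 alone had 128. Of the 46 members on chromosome 13, 2 had 0 reads, against 7 of 10 on chromosome 3. The chromosome 13 members had a DMSO mean of 22.1 ± 0.789 CPM and a daidzein mean of 22.6 ± 0.738 (SD, n = 2 each).

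**Figure D3:**
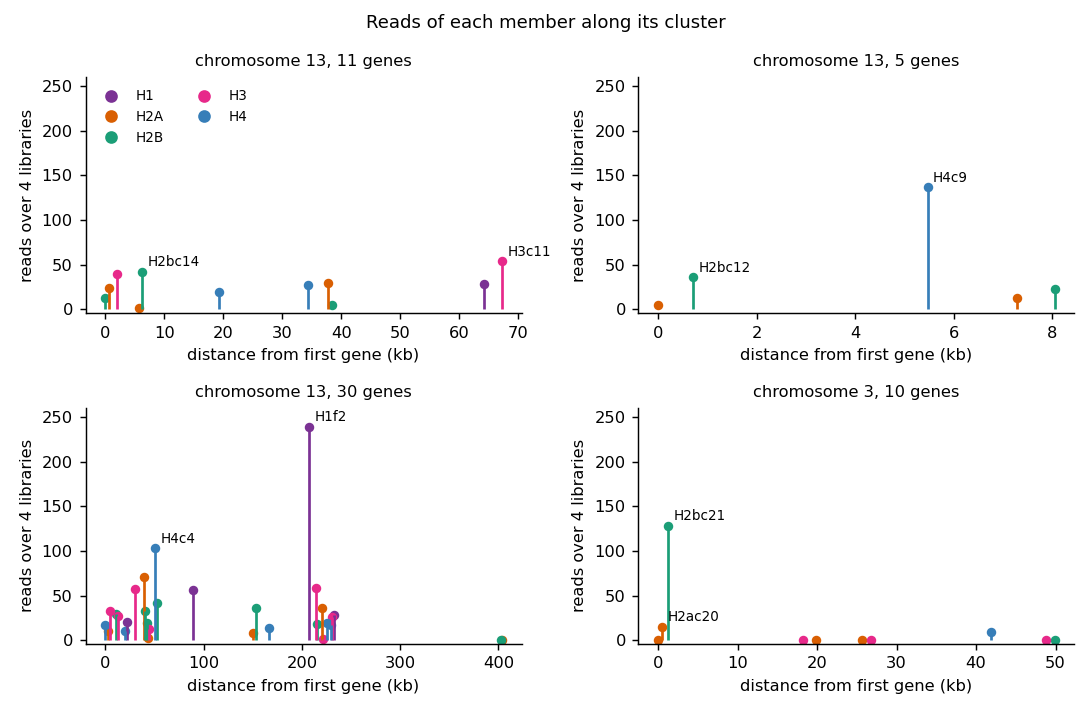
Reads summed over the 4 libraries for each member (vertical axis) by its distance in kb from the first member of its cluster, coloured by histone type, with the 2 leading members of each cluster named. H1f2 reaches 239 reads, H4c9 137 and H2bc21 128, while 7 of 10 members on chromosome 3 stand at 0.

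The members at 0 fall into 2 kinds. H2ac1 and H2bc1, a neighbouring pair known for the testis-specific histones TH2A and TH2B, had 0 reads although 89.7% and 72.6% of their 100-base stretches occur in no other gene. Over the 4 libraries a count of 0 allows up to 0.111 FPKM for H2ac1 and 0.113 for H2bc1. H1f6, H1f7 and H1f8, other germ cell linker histones, had 0 reads too. The other 7, all on chromosome 3, are H2ac18, H2ac19, H2ac21, H2bc18, H3c13, H3c14 and H3c15. In 5 of these, every 100-base stretch also occurs in a transcript of another annotated gene, and in H2ac21 and H3c15 only 40.3% and 38.4% are unique. H3c14 lies wholly within Gm20634 on the same strand, and H2ac18 shares 90.3% of its exonic bases with same-strand genes. H2ac18, H2ac19, H2bc18 and H3c13 are wholly covered by genes on the opposite strand. For these 7, absence of RNA cannot be told apart from reads that were not counted. Such reads may match several places or, except in H3c15, lie where annotated genes overlap.

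Over all 56 members, the median level was higher in the classes with more unique sequence. The 5 members with no unique 100-base stretch had 0 reads, as just described. The 17 members above 0 and up to 50%, among them H2ac21 and H3c15, had 288 reads and a median of 0.390 FPKM. The 24 members above 50 and up to 90%, among them H2ac1 and H2bc1, had 772 reads and a median of 0.476 FPKM. The 10 members above 90% had 634 reads and a median of 0.548. With reads and exonic lengths pooled within each of these classes, FPKM was 0.526, 0.539 and 0.447 in the same order, with no such rise. None of the 10 most unique members reached the 8.08 FPKM of Ung, the lowest S phase gene listed. The part of shared sequence in the histone counts was not tested. These shares are over annotated transcripts, not the genome, and the true read length is not known; at 50 bases the median member had 48.1% unique stretches and at 150 bases 76.1%.

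The annotated 3′ end was compared in the same manner. Members whose models run past the stem-loop held 894 reads, 52.8% of the total. Members whose models end near it held 370 reads and those with no match 430. Per length the order was different: the median member stood at 0.310 FPKM among long models, at 0.559 among models that end near the stem-loop and at 0.450 among those with no match. H4c9, H1f2 and H4c4, with 330, 840 and 770 bases past the stem-loop, are among the highest members, but H1f3, H2ac6 and H4c14, with 4884, 2010 and 1257, had at most 8 reads in a library. Counts per gene do not show where in a model the reads lie.

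**Figure D4:**
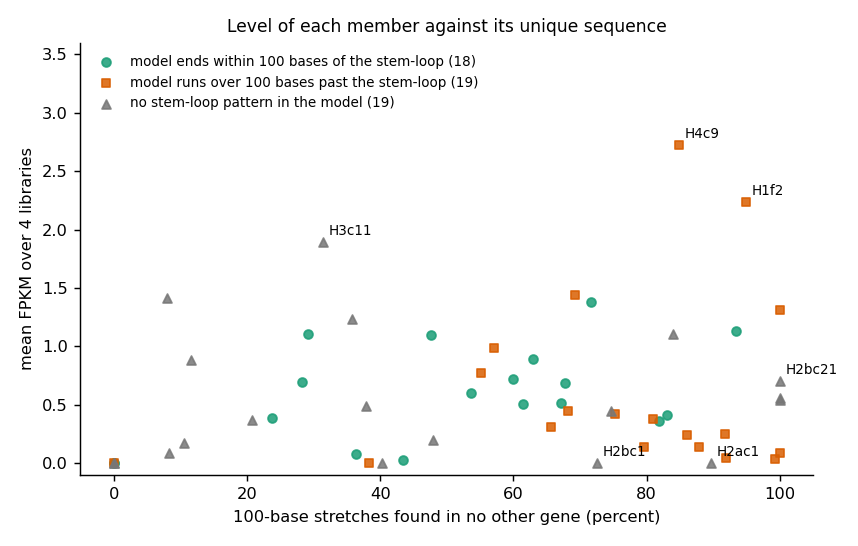
Mean FPKM over the 4 libraries of each member against the percentage of its 100-base stretches found in no other annotated gene, with the marker giving where the model ends relative to the stem-loop. H3c11 reaches 1.89 FPKM with 31.4% unique stretches, while H2ac1 and H2bc1 stand at 0 with 89.7% and 72.6%.

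Promoters of many members hold motifs known from histone genes. RefSeq promoters (GRCm38.p6, 250 bases before to 50 after the start) matched 50 of 56 members by symbol and place. CCAAT was found on either strand in 88.0% of these against 41.0% of 26975 other genes, and TATAAA in 60.0% against 15.6%. H4 genes stood apart in the first of these: CCAAT was in 3 of 9 H4 promoters (33.3%), below the share of other genes, and in every promoter matched of the other types. The octamer ATTTGCAT, on either strand, was found in 7 of 12 H2B and 6 of 14 H2A promoters, in 0 H1, H3 or H4 promoters and in 1.92% of other genes. H2A and H2B genes often share 1 promoter between them, so these matches are not independent. A match is a description of letters in the window.

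No member passed the test between daidzein and DMSO libraries. Only 15 of 56 members passed the filter on low counts, and 0 of them rose or fell at an adjusted p of 0.05 in edgeR's quasi-likelihood test. Over all 11700 genes tested the share called was 0.0171%, or 2 genes, so a count of 0 among 15 says little. At an unadjusted p under 0.05 there was 1 of 15 members, against 2.91% of all genes tested, and DESeq2 also called 0 members. The median log2 difference of the 15 was -0.19, with 5 higher and 10 lower, against -0.0030 over all genes tested. That sign was not stable: it was 0.13 with no filter and 0.13 by DESeq2, where all 47 members with a read enter, and 0.047 to 0.20 with 1 library left out, where 20 to 24 members enter.

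H2bc6 had the largest difference of the 15. H2bc6 (ENSMUSG00000047246; GRCm38 chromosome 13, 23583670 to 23621124, minus strand) was read 15 and 17 times with DMSO and 4 and 6 times with daidzein. Both daidzein libraries lay below both DMSO libraries. In TMM-normalized CPM the DMSO mean was 0.959 ± 0.0440 and the daidzein mean 0.278 ± 0.0620 (SD, n = 2 each). The fitted ratio was 0.297 (95% interval 0.131 to 0.672). It did not pass, with an edgeR adjusted p of 1.00 (0.00578 unadjusted), and the adjusted p ran from 0.575 to 1.00 over the alternatives. The model has up to 2 exons and shares 11.2% of its exonic bases on the same strand with H1f4 and Gm11398. H1f4 overlapped between the groups, with a fold of 0.873 (0.429 to 1.78).

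The most abundant members had narrower intervals, and each included 1. H1f2 had a fold of 0.809 (95% interval 0.572 to 1.15), and its 2 daidzein libraries lay just below the DMSO libraries. H4c9 had a fold of 1.09 (0.702 to 1.71), H2bc21 of 0.875 (0.534 to 1.44) and H4c4 of 0.988 (0.587 to 1.66). H2ac8 had a fold of 1.27 (0.655 to 2.46). On the log2 scale the widest interval was that of H2bc8, with 14 and 3 reads against 3 and 13, a fold of 0.874 (0.303 to 2.53). Differences within such bounds may be missed at this depth, and so may larger ones, since H2bc6 did not pass at a ratio of 0.297. With 1 library left out, the direction turned in 10 of the 15 tested members, all but H1f2, H2ac4, H2bc6, H2bc14 and H3c11. The log2 difference of H2ac8, 0.34, became -0.35 without daidzein replicate 2 and 0.79 without daidzein replicate 1. That of H2bc8, -0.19, ran from -1.503 without daidzein replicate 2 to 1.32 without DMSO replicate 1. Of the 47 members with a read, both daidzein libraries lay above both DMSO libraries in 7 (12.1% of all genes with a read do so) and below in 5 (14.6% do so). The 7 are H1f5, H2ac4, H2ac12, H2bc13, H3c1, H4c6 and H4c8, and the 5 are H1f2, H2bc6, H2bc15, H3c4 and H4c14. In H2bc15, H3c4 and H4c14 a DMSO and a daidzein library tied in reads, so library totals alone set them apart.

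**Figure D5:**
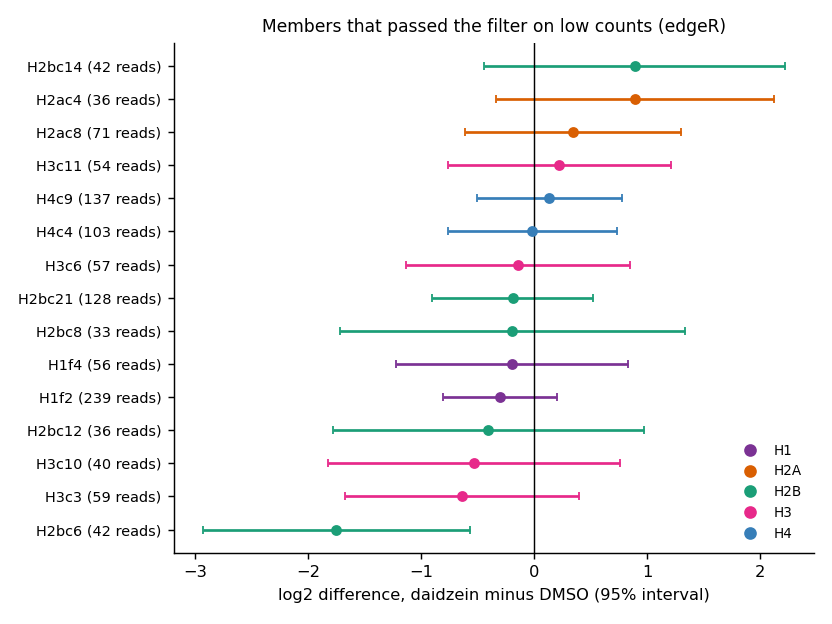
Log2 difference, daidzein minus DMSO, with its 95% interval from edgeR for the 15 members that passed the filter on low counts, with reads over the 4 libraries in parentheses. The intervals of 14 members include 0, and that of H2bc6 runs from -2.93 to -0.57 without passing the adjusted threshold.

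No gene of the related lists passed the test either. Over all 11700 genes tested 0.0171% were called, so 0 in such short lists says little about them. Daidzein libraries were higher in 5697 of all genes tested and lower in 6003. Of 20 processing and decay genes that could be tested, daidzein libraries were higher in 11 and lower in 9, and 0 passed. Slbp had a fold of 1.03 (95% interval 0.954 to 1.12), Npat of 1.09 (0.941 to 1.27) and Lsm11 of 1.08 (0.943 to 1.24). Of 20 chaperone genes, 14 were higher and 6 lower with a median log2 difference of 0.02, and 0 passed. Of 30 S phase genes, 11 were higher and 19 lower with a median of -0.0030, and 0 passed; Pcna had a fold of 0.992 (0.921 to 1.07). Of 9 variant histone genes tested, 4 were higher and 5 lower, with log2 differences from -0.07 for H2ax to 0.06 for H3f3a, and 0 passed. Of the RNAs without a tail, only Rn7sk and Rpph1 had enough reads, at folds of 0.970 (0.449 to 2.09) and 1.05 (0.572 to 1.92). The log2 difference of Rn7sk, -0.045, ran from -0.55 without daidzein replicate 2 to 0.79 without DMSO replicate 2. At an unadjusted p under 0.05 the edgeR count was 0 in each of these 5 lists, against 2.91% of all genes tested. DESeq2 called 0 of the named genes in these lists.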

How the data were processed

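For each gene the authors deposited a raw read count, whole in every library, and an FPKM value. Per the submitters' processing notes HTSeq 0.6.1, HISAT2 2.0.1, DESeq2 and the build mm9 were involved, in roles not stated. The coordinates are those of GRCm38: 99.61% of 55141 genes matched to GENCODE M21 had the same start, as did all 56 members. How reads with several matches were counted is not given in those notes or labels.

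The test on counts was that of edgeR 4.0.16, run in R 4.3.3 (TMM, filterByExpr, quasi-likelihood F test, Benjamini-Hochberg adjustment over all 11700 genes tested, 0.05). CPM of single genes with an SD is TMM normalized, and CPM summed over genes is per library total. The steps were tested on simulated data. Alternatives were DESeq2 1.42.0, its size factors, other filters, a replicate block, each library left out and limma 3.58.1 on log2(FPKM + 1) for genes of at least 1 FPKM in 2 libraries. A gap of over 200 kb separated clusters. Sequence shares count the distinct 50-, 100- or 150-base stretches of a member's GENCODE transcripts found in no other gene's transcripts, on either strand. For a symbol with several rows, the one with most reads was used.

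Named genes are the 4 members of each type with the most reads, all members that passed the filter, H2ac1, H2bc1, the 6 leading genes of each list and set examples; any other gene was named with its values already seen. Members and lists were chosen with earlier results of these data known.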

Additional observations from a re-analysis of the deposited data

How the results depend on the processing

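Against 2 changed genes by edgeR there were 11 with no filter, 1 with a filter of 5 CPM in 2 libraries, 27 with the replicate block and 0 by limma on FPKM (379 at an unadjusted p under 0.05). With any 1 library left out it rose, from 4 without DMSO replicate 1 to 17 without daidzein replicate 2, where the lone library is assumed to vary like the others. In all of these, and by DESeq2, 0 members passed. The median log2 difference of members, -0.19, was 0.13 by DESeq2, 0.13 with no filter and -0.046 by limma on FPKM, and ran from 0.047 to 0.197 with 1 library left out; with the replicate block it was -0.18. No member reached 5 CPM in 2 libraries, so that filter gave no median. The summed share of members, 24.5 CPM as a mean over libraries, was 21.02 without H1f2 and 20.3 without members under 50% unique stretches. The ratio to variant histone genes, 4.12% in FPKM, was 0.904% in read counts, 3.78% without H4c9 and 6.45% per unique length. That last setting, chosen after seeing the data, took only the 46 members with at least 100 unique bases and left the variant sum per exonic length. The cause of these changes was not tested, beyond the genes or lengths each setting takes away. Of 132 recomputed log2 differences of the 15 tested members, 15 changed sign, and 0 passed the threshold. Of 448 values of 47 named genes, 1 newly passed, Malat1 without daidzein replicate 2. No label gives same-numbered libraries a shared source, and across genes the deviations of same-numbered libraries correlated at only 0.09. With just 2 pairs, the numbers were treated as names. Low read numbers limit these values: the median member had 19.5 reads in all.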

Other observations

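Clustered histone rows that kept older symbols were also scarce. The 9 rows whose symbols start with Hist1h summed to 31 and 24 reads with DMSO and to 41 and 51 with daidzein, and 2 of them had 0 reads. Hist1h2ao, an H2A gene, held 91 of these 147 reads, with 14 and 16 with DMSO and 28 and 33 with daidzein. Both daidzein libraries lay above both DMSO libraries, with a fold of 1.89 (95% interval 1.09 to 3.27), an edgeR adjusted p of 1.00 and an unadjusted p of 0.025. Hist1h4n had 6, 5, 5 and 8 reads. H4f16, a row that the rule does not take, had 10, 16, 9 and 14 reads and a fold of 0.827 (0.399 to 1.71).

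Among long nuclear RNAs, the DMSO mean of Malat1 was 16.4 ± 0.866 CPM and the daidzein mean 11.6 ± 2.46 (SD, n = 2 each). The fitted ratio was 0.712 (95% interval 0.578 to 0.876). It did not pass edgeR's adjusted test (adjusted p of 1.00, 0.00291 unadjusted), and passed without daidzein replicate 2, with a log2 difference of -0.73 against -0.49 and an adjusted p of 0.0155. Without daidzein replicate 1 the log2 difference was -0.295 (adjusted p of 1.00, 0.0627 unadjusted). Neat1 had 47 and 57 reads with DMSO and 40 and 38 with daidzein, a fold of 0.702 (0.477 to 1.03). Kcnq1ot1 had 0 reads in every library, and the only 3 reads of Xist came from daidzein replicate 2.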
